A study of Homo sapiens with 16 samples.

Results

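The genes described here are 10 genes of the integrated stress response and the unfolded protein response: ATF4, ATF3, DDIT3, TRIB3, ASNS, CHAC1, SESN2, HERPUD1, XBP1 and DDIT4. They were chosen by name, as the rows of the expression table whose gene symbol is one of the 10, and all 10 were found among the 18417 genes that have a transcript cluster (a group of probes for 1 gene) of their own on the array. Of several clusters of a gene, the one with the highest mean over the 16 arrays was taken. This choice mattered only for ATF4, which had another cluster.

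Affymetrix Human Gene 1.0 ST arrays measured the RNA of 4 groups of cells, with 4 arrays per group that are labelled as biological replicates. G10 and A7 are clones of A375, a human amelanotic melanoma line, that were stably transfected with a pcDNA3 vector holding the human catalase cDNA, selected with geneticin and isolated by clonal dilution. PCDNA3 cells are A375 cells that carry the empty vector, and A375 cells were not transfected. The stably transfected cells were grown with geneticin, and all cells were harvested before confluence. Each catalase group is 1 clone, so that catalase and the clone cannot be told apart within a group. The values are RMA log2 intensities, so that a difference of 1 is a 2-fold difference in signal.

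When proteins accumulate unfolded in the endoplasmic reticulum (ER), or when amino acids or heme run short, kinases such as PERK and GCN2 phosphorylate the translation factor eIF2. Most translation then slows, while the mRNA of the transcription factor ATF4 is translated better, so that the level of ATF4 mRNA is only a part of its regulation. ATF4 switches on genes for amino acid supply (ASNS), the bZIP factors ATF3 and DDIT3 (also known as CHOP) and feedback or effector genes such as TRIB3, CHAC1, SESN2 and DDIT4. In the other branches of the unfolded protein response, the protease-released factor ATF6 and the IRE1-spliced form of XBP1 switch on chaperones and degradation factors such as HERPUD1. The arrays measure the XBP1 mRNA as a whole and do not separate its spliced form.

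The promoters of the 4 genes that passed the test in at least 1 comparison are printed, because they hold the letters through which these factors are known to act. RefSeq promoter windows (build GRCh38.p14, 250 bases before to 50 after a transcription start) were found for all 10 genes. TGATGNAA, the core of the amino acid response element bound by ATF4 with C/EBP factors, was matched on either strand in a window of 4 of the 10 genes, against 4.46% of 27305 genes. It was in the windows of ASNS, CHAC1, HERPUD1 and ATF3. The ER stress response element, CCAAT and CCACG with 9 bases between them, was in the window of XBP1 and of 0.0916% of genes. Its variant, ATTGG and CCACG with 1 base between them, was in the window of HERPUD1 and of 0.0696% of genes. The cyclic AMP response element TGACGTCA was in the window of 0 of the 10 genes and of 2.25% of all genes. A match describes the letters of the window, and the shorter motif overlapped none of the others in the printed windows. Capitals mark the matches, and each window runs 5′ to 3′ on the strand of its gene, ASNS on the minus strand (chr7:97872359-97872658), CHAC1 on the plus strand (chr15:40953221-40953520), HERPUD1 on the plus strand (chr16:56931892-56932191) and XBP1 on the minus strand (chr22:28800520-28800819).
ASNS: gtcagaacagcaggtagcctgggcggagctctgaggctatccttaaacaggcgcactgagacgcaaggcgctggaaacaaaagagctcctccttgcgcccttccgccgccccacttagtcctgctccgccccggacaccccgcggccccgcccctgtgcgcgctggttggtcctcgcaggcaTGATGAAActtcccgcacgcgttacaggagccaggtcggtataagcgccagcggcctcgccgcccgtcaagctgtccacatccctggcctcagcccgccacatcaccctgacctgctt
CHAC1: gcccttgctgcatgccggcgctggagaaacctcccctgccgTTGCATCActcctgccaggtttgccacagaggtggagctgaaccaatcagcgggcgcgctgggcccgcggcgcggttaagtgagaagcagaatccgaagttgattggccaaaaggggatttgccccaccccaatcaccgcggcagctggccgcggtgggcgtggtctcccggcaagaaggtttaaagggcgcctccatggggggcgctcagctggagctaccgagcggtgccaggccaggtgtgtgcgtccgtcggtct
HERPUD1: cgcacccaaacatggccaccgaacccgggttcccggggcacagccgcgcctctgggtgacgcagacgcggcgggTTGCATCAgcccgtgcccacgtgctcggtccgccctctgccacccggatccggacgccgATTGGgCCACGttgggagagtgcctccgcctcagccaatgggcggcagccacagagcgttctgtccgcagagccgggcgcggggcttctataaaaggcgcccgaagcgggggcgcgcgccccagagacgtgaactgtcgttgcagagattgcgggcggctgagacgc
XBP1: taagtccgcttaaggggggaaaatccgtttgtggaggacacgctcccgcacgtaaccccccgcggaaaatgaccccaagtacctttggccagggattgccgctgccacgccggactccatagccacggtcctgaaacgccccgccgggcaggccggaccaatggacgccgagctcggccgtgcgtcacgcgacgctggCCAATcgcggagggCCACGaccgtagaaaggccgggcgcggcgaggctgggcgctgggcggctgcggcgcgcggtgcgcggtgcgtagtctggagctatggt

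Several facts of the whole series bear on these genes. Array medians lay between 5.85 and 5.97, and all 10 genes had a mean above 5.17 in every group, the 95th percentile of 379 olfactory receptor clusters, which stand for genes that melanoma cells do not express. Of 9 melanocyte markers, 8 were measured, and their summed log2 level was 67.8 to 71.0 on G10 arrays, 70.1 to 72.6 on A7 arrays, 61.5 to 68.4 on PCDNA3 arrays and 61.9 to 65.2 on A375 arrays. Of 17 markers of leukocytes, endothelial cells, epithelial cells and fibroblasts, 9 were below the olfactory receptor level in every group (PTPRC, CD3E, PECAM1, CDH5, VWF, EPCAM, CDH1, KRT5 and DCN) and 8 were above it in every group (CD14, KDR, KRT14, CLDN4, PDGFRA, PDGFRB, LUM and COL1A1). The fibroblast markers thus had 4 of 5 above that level, with a summed log2 level of 25.9 to 28.9 on G10 arrays, 28.3 to 28.7 on A7 arrays, 26.7 to 27.9 on PCDNA3 arrays and 28.4 to 29.2 on A375 arrays. LUM was called higher and CLDN4 lower in A7. The part of these markers in the results was not tested. The signal of the catalase cluster (CAT) averaged 8.27 ± 0.38 in G10, 9.02 ± 0.08 in A7, 8.57 ± 0.10 in PCDNA3 and 8.73 ± 0.20 in A375 (SD, n = 4 each). It was called only in G10 vs A7 (log2 fold change -0.75, limma adjusted p 0.00221). The CAT signal was thus not higher in G10 than in the controls. Whether the probes of this cluster cover the transfected cDNA was not tested, and the clones are named here as the labels give them. Over all clusters, G10 arrays 1 and 2 deviated from the G10 mean together (r = 0.30), as did arrays 3 and 4 (r = 0.14), while across these pairs r was between -0.64 and -0.55. In A7 the same pairs had r of 0.08 and 0.17, against -0.66 to -0.48 across pairs. Deviations from the mean of the same 4 arrays cancel, so unrelated arrays have a negative r. For comparison, r was between -0.49 and -0.23 among A375 arrays and between -0.42 and -0.28 among PCDNA3 arrays. The labels name no batch. Values for a pair of G10 arrays alone are given beside many, not all, of the results whose call or size changed with it. The pairs were chosen after seeing these data, so the arrays of a pair were alike by choice. A call or adjusted p for a pair alone is thus a description and not a test. In G10 vs controls, replicates 1 and 2 alone gave 21.1% of clusters called (10.3% lower). Replicates 3 and 4 alone gave 14.5% (5.96% lower).

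A gene is called here when its adjusted p over all 33297 clusters was under 0.05. Controls means the average of the PCDNA3 and A375 group means. In G10 vs controls, 2 of the 10 genes were called, XBP1 and ASNS, both lower, where 17.8% of all clusters were called (9.92% higher and 7.9% lower), and 30% of clusters above the olfactory receptor level when these alone were fitted. In A7 vs controls, 1 gene, ASNS, was called lower, where 5.69% of clusters were called (3.46% higher and 2.23% lower). Between the clones, G10 vs A7, CHAC1, HERPUD1 and XBP1 were called lower, where 15.2% of clusters were called (7.83% higher and 7.38% lower). In PCDNA3 vs A375, limma called 0 of the 10 genes, and 2 had an unadjusted p under 0.05, where 0.123% of clusters were called (0.045% higher and 0.0781% lower). With all arrays and all clusters, no gene of the 10 was called higher in any of these comparisons. The median log2 fold change of the 10 genes was -0.13 in G10 vs controls (-0.04 over all clusters), -0.05 in A7 vs controls (-0.02 over all clusters), 0.03 in G10 vs A7 (-0.01 over all clusters) and 0.03 in PCDNA3 vs A375 (0.01 over all clusters).

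**Figure D1:**
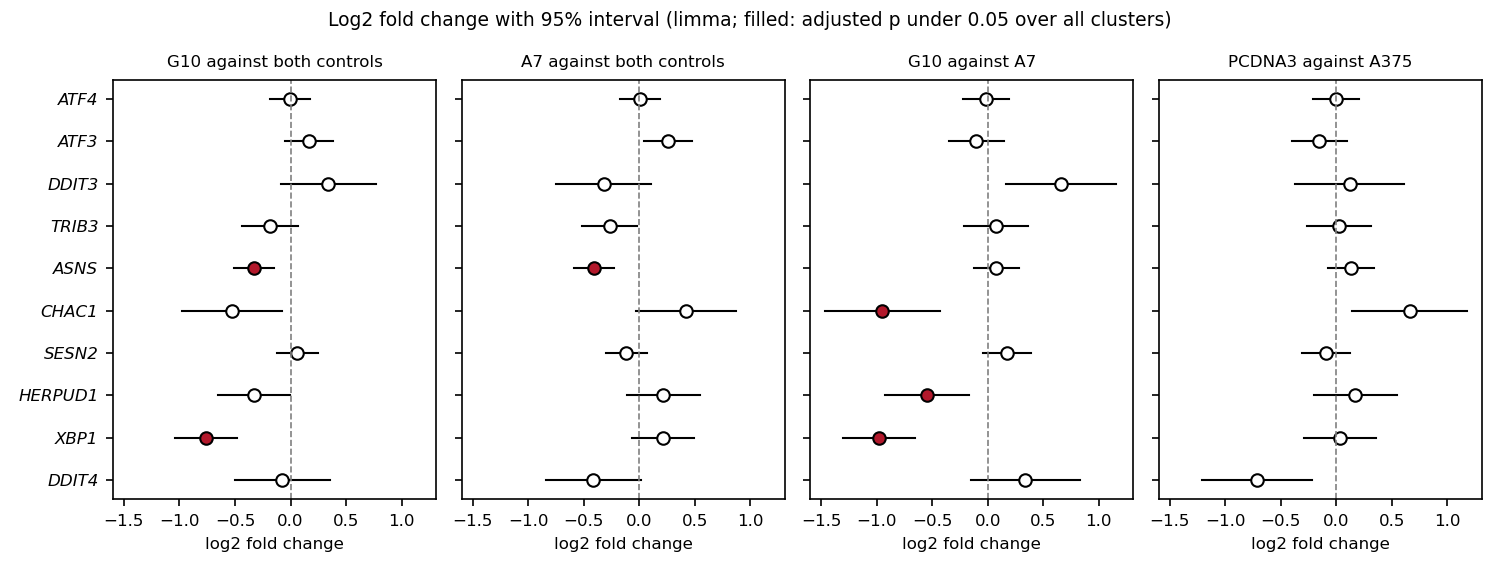
Log2 fold change of the 10 genes (rows) with its 95% interval in 4 comparisons (panels, x axis in log2 units). Filled points have a limma adjusted p under 0.05, which are XBP1 and ASNS in G10 vs controls, ASNS in A7 vs controls, CHAC1, HERPUD1 and XBP1 in G10 vs A7 and none in PCDNA3 vs A375.

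ATF4 itself, the transcription factor at the center of the response, averaged 10.39 ± 0.21 in G10, 10.40 ± 0.05 in A7, 10.39 ± 0.04 in PCDNA3 and 10.39 ± 0.12 in A375 (SD, n = 4 each). Its log2 values were 10.34, 10.35, 10.68 and 10.18 in G10, 10.33, 10.42, 10.45 and 10.42 in A7, 10.35, 10.45, 10.39 and 10.38 in PCDNA3, and 10.53, 10.39, 10.43 and 10.24 in A375. All groups overlapped, and the highest and the lowest of the 16 arrays were both G10 arrays. The log2 fold change was -0.01 in G10 vs controls (95% interval -0.19 to 0.17) and 0.01 in A7 vs controls (95% interval -0.17 to 0.19). Differences larger than 0.19 in either direction lay outside both intervals, while smaller ones could lie inside them. The other ATF4 cluster gave -0.05 in G10 and 0.06 in A7 and was not called in any of these comparisons.

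XBP1, the transcription factor that drives chaperone and secretory genes once IRE1 has spliced its mRNA, was lower in G10 than in every other group. Its log2 values were 9.79, 9.82, 9.40 and 9.02 on G10 arrays, against 10.64, 10.50, 10.39 and 10.41 on A7 arrays, 10.08, 10.47, 10.40 and 10.19 on PCDNA3 arrays and 10.42, 10.17, 10.25 and 10.17 on A375 arrays. Every G10 array was below every array of the other groups. In such bulk RNA, fewer cells of a type and less RNA per cell cannot be told apart. XBP1 fell 1.69-fold in G10 vs controls (log2 fold change -0.76, SE 0.13, adjusted p 0.000618). It was lower in G10 vs PCDNA3 alone (-0.78, adjusted p 0.00205, with 15.5% of clusters called) and in G10 vs A375 alone (-0.74, adjusted p 0.00305, with 14.2% of clusters called). Between the clones the difference of XBP1 was 1.97-fold in G10 vs A7 (log2 fold change -0.98, SE 0.15, adjusted p 0.000284). The size differed between the pairs of G10 arrays, with -1.06 vs controls for replicates 3 and 4 (adjusted p 7.62e-05) and -0.46 for replicates 1 and 2 (adjusted p 0.00714). In A7 the mean was 0.22 above controls and this was not called (adjusted p 0.444).

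**Figure D2:**
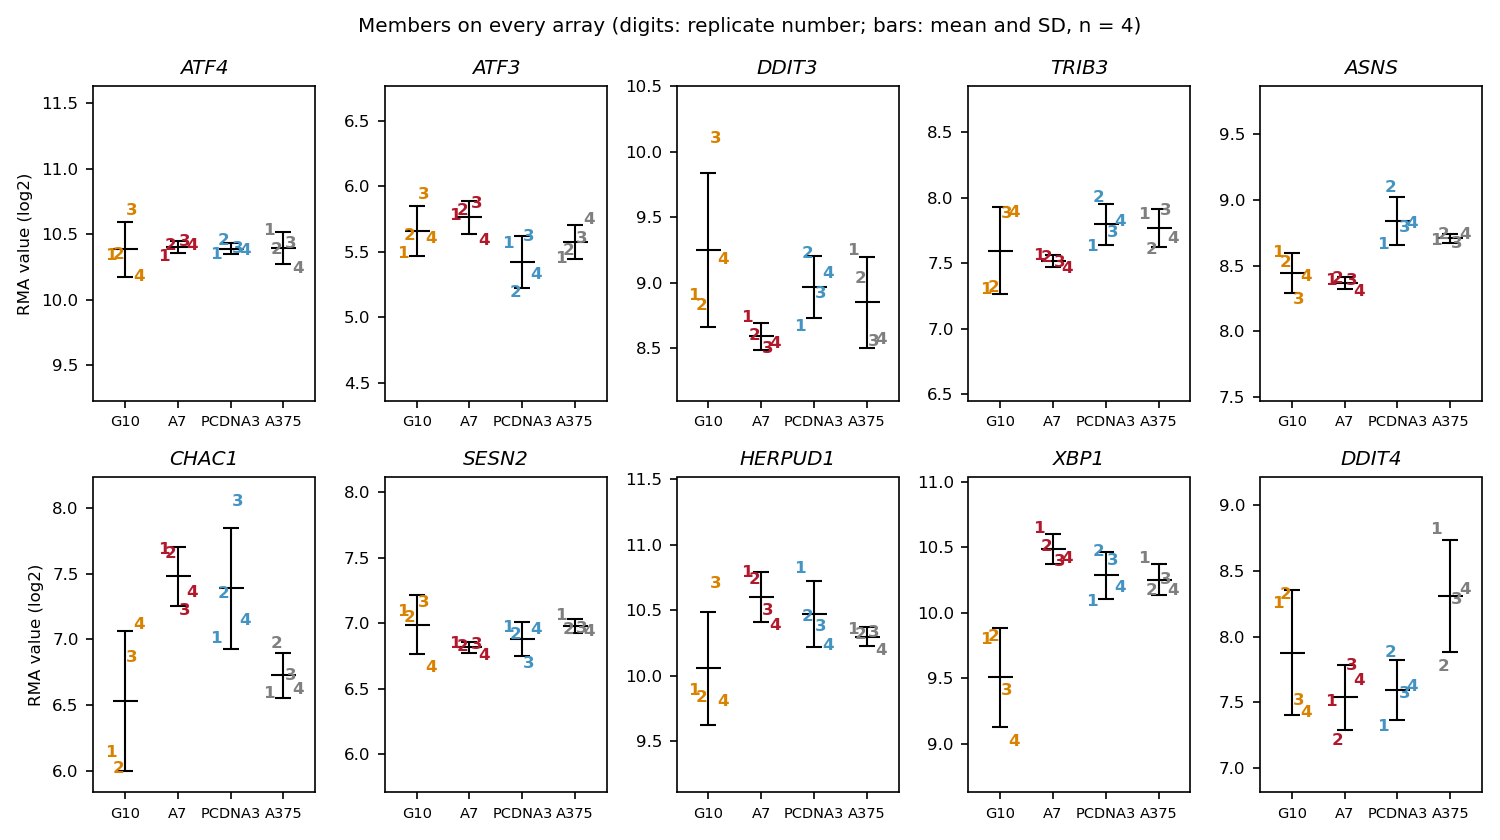
RMA log2 value of each of the 10 genes (panels) on each of 16 arrays, printed as the replicate number, with the group mean and SD (n = 4) as bars, and each vertical axis spanning 2.4 log2 units. The 4 XBP1 values of G10 lie between 9.02 and 9.82, below those of all other groups, the 4 ASNS values of A7 lie between 8.30 and 8.40, and ATF4 stays between 10.18 and 10.68 on all arrays.

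ASNS, the enzyme that makes asparagine and an established target of ATF4, was lower in both catalase clones than in the controls. Its log2 values were 8.60, 8.52, 8.24 and 8.42 in G10 and 8.39, 8.40, 8.38 and 8.30 in A7, against 8.66, 9.10, 8.79 and 8.82 in PCDNA3 and 8.69, 8.74, 8.67 and 8.74 in A375. All 8 arrays of the clones were below all 8 control arrays, although the gap was narrow (8.60 for the highest clone array, a G10 array, against 8.66 for the lowest control array). The fall was 1.33-fold in A7 (log2 fold change -0.41, SE 0.08, adjusted p 0.00764) and 1.26-fold in G10 (-0.33, SE 0.08, adjusted p 0.0107). With G10 replicates 1 and 2 alone the fall of ASNS in G10 was -0.21 and not called (adjusted p 0.146), and with replicates 3 and 4 alone it was -0.44 (adjusted p 0.00821). Both comparisons use the same control arrays. Against PCDNA3 alone, ASNS was called in A7 (-0.47, adjusted p 0.00849, with 4.72% of clusters called) and in G10 (-0.40, adjusted p 0.00983). Against A375 alone it was not called in A7 (-0.34, adjusted p 0.0612, with 4.17% of clusters called) or in G10 (-0.26, adjusted p 0.0862). In G10 vs A7 the log2 fold change was 0.08 (95% interval -0.13 to 0.28), and it was not called.

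CHAC1, an enzyme that degrades glutathione and is induced by ATF4, ATF3 and DDIT3, differed between the clones and also, without a call, between the controls. Its log2 values were 6.14, 6.02, 6.86 and 7.11 in G10, against 7.69, 7.66, 7.22 and 7.36 in A7, with 7.01, 7.35, 8.05 and 7.15 in PCDNA3 and 6.59, 6.97, 6.73 and 6.62 in A375. All G10 arrays were below all A7 arrays, while the control groups stood apart from each other and did not overlap. In G10 vs A7 the difference was 1.93-fold (log2 fold change -0.95, SE 0.24, adjusted p 0.0135). With G10 replicates 1 and 2 alone it was -1.40 (adjusted p 0.000701), and with replicates 3 and 4 alone it was -0.50 and no longer called (adjusted p 0.206). Vs controls, CHAC1 was 0.53 log2 units lower in G10 (adjusted p 0.106) and 0.42 higher in A7 (adjusted p 0.329), neither called. Without G10 replicate 4 the G10 difference from controls was called (-0.72, adjusted p 0.0276). The choice of control changed the call too, since G10 was lower than PCDNA3 (-0.86, adjusted p 0.025) and not called against A375 (-0.19, adjusted p 0.703). PCDNA3 exceeded A375 by 0.66, with an adjusted p of 0.27.

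HERPUD1, a membrane protein of ER-associated degradation, was low on 3 of the 4 G10 arrays. Its log2 values were 9.89, 9.83, 10.70 and 9.81 in G10, against 10.79, 10.74, 10.50 and 10.39 in A7, 10.82, 10.45, 10.38 and 10.23 in PCDNA3 and 10.35, 10.32, 10.33 and 10.19 in A375. G10 replicates 1, 2 and 4 were below all other arrays, and G10 replicate 3 was among the highest. HERPUD1 was 1.46-fold lower in G10 vs A7 (log2 fold change -0.55, SE 0.18), close to the limit (adjusted p 0.0488). Without G10 replicate 3 it was -0.76 (adjusted p 0.000824), while leaving out any of 13 of the other arrays in turn, except A7 replicate 4 and PCDNA3 replicate 1, gave an adjusted p between 0.0521 and 0.137. Vs controls it was not called in G10 (-0.33, adjusted p 0.177) with all arrays, and it was called without replicate 3 (-0.54, adjusted p 0.0037) and with replicates 1 and 2 alone (-0.52, adjusted p 0.0129), against -0.13 with replicates 3 and 4 alone (adjusted p 0.743). The difference of HERPUD1 in G10 vs A7 was -0.35 with replicates 3 and 4 alone (adjusted p 0.342). In A7 it was 0.22 above controls, not called (adjusted p 0.536).

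DDIT3, the factor CHOP that links ER stress to cell death, was high on the same G10 array. Its log2 values were 8.90, 8.83, 10.10 and 9.18 in G10, against 8.73, 8.60, 8.50 and 8.54 in A7, 8.67, 9.22, 8.92 and 9.07 in PCDNA3 and 9.25, 9.03, 8.55 and 8.57 in A375. G10 replicate 3 was the highest of the 16 arrays and the other G10 arrays were within the range of the controls. All G10 arrays were above all A7 arrays, but the difference of 0.66 was not called (adjusted p 0.0723), and without G10 replicate 2 it was (0.80, adjusted p 0.0398). With all arrays but only clusters above the olfactory receptor level fitted, the difference was called too (adjusted p 0.0456, with 25.9% of clusters called). Without G10 replicate 3 it was 0.38 (adjusted p 0.18). With G10 replicates 3 and 4 alone the difference from A7 was 1.04 (adjusted p 0.00953), and with replicates 1 and 2 alone it was 0.27 (adjusted p 0.431). DDIT3 was not called vs controls in G10 (0.34, adjusted p 0.308) or in A7 (-0.32, adjusted p 0.478) with all arrays. In G10 vs controls it was 0.06 without replicate 3, -0.05 with replicates 1 and 2 alone and 0.73 with replicates 3 and 4 alone, of which the last was called (adjusted p 0.044).

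ATF3, the stress-induced bZIP repressor, had values of 5.49 to 5.93 in G10 and 5.58 to 5.87 in A7, against 5.19 to 5.61 in PCDNA3 and 5.45 to 5.74 in A375. These values lie near the olfactory receptor level of 5.17, and no group stood apart. The differences from controls were 0.16 in G10 (adjusted p 0.342) and 0.26 in A7 (adjusted p 0.178). TRIB3, a pseudokinase that feeds back on ATF4, had values of 7.30 and 7.32 on G10 replicates 1 and 2 and of 7.88 and 7.89 on replicates 3 and 4. All A7 values of TRIB3 (7.46 to 7.56) were below all control values, of which the lowest were 7.63 in PCDNA3 and 7.61 in A375. Neither difference from controls was called over all arrays (G10, -0.19, adjusted p 0.342, and A7, -0.27, adjusted p 0.257). With G10 replicates 1 and 2 alone the fall of TRIB3 in G10 was called (-0.47, adjusted p 0.00376). With replicates 3 and 4 alone the difference was 0.10 and not called (adjusted p 0.618). In G10 vs A7, TRIB3 was called higher with replicates 3 and 4 alone (0.365, adjusted p 0.044). With all arrays it was 0.08 and not called (adjusted p 0.813), and with replicates 1 and 2 alone it was -0.21 (adjusted p 0.261).

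SESN2 and DDIT4 restrain the growth kinase complex mTORC1. SESN2 had values of 6.66 to 7.16 in G10, 6.75 to 6.85 in A7, 6.69 to 6.97 in PCDNA3 and 6.94 to 7.06 in A375. It was not called vs controls in G10 (0.06, adjusted p 0.732) or in A7 (-0.11, adjusted p 0.585), and without G10 replicate 4 it was called in G10 vs A7 (0.28, adjusted p 0.0317, against 0.17 and 0.323 with all arrays). DDIT4 had values of 8.26, 8.32, 7.52 and 7.42 in G10, 7.50, 7.21, 7.78 and 7.66 in A7, 7.32, 7.88, 7.56 and 7.62 in PCDNA3 and 8.82, 7.77, 8.28 and 8.36 in A375. G10 thus split into its array pairs, and the controls differed by -0.71 in PCDNA3 vs A375 (adjusted p 0.214). DDIT4 was not called vs controls in G10 (-0.07, adjusted p 0.871) or in A7 (-0.41, adjusted p 0.314). For G10 vs controls, replicates 1 and 2 alone gave 0.34 (adjusted p 0.343) and replicates 3 and 4 alone -0.48 (adjusted p 0.171). In G10 vs A7, DDIT4 was called higher with replicates 1 and 2 alone (0.75, adjusted p 0.0386). It was not called there with replicates 3 and 4 alone (-0.07, adjusted p 0.905) or with all arrays (0.34, adjusted p 0.423).

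**Figure D3:**
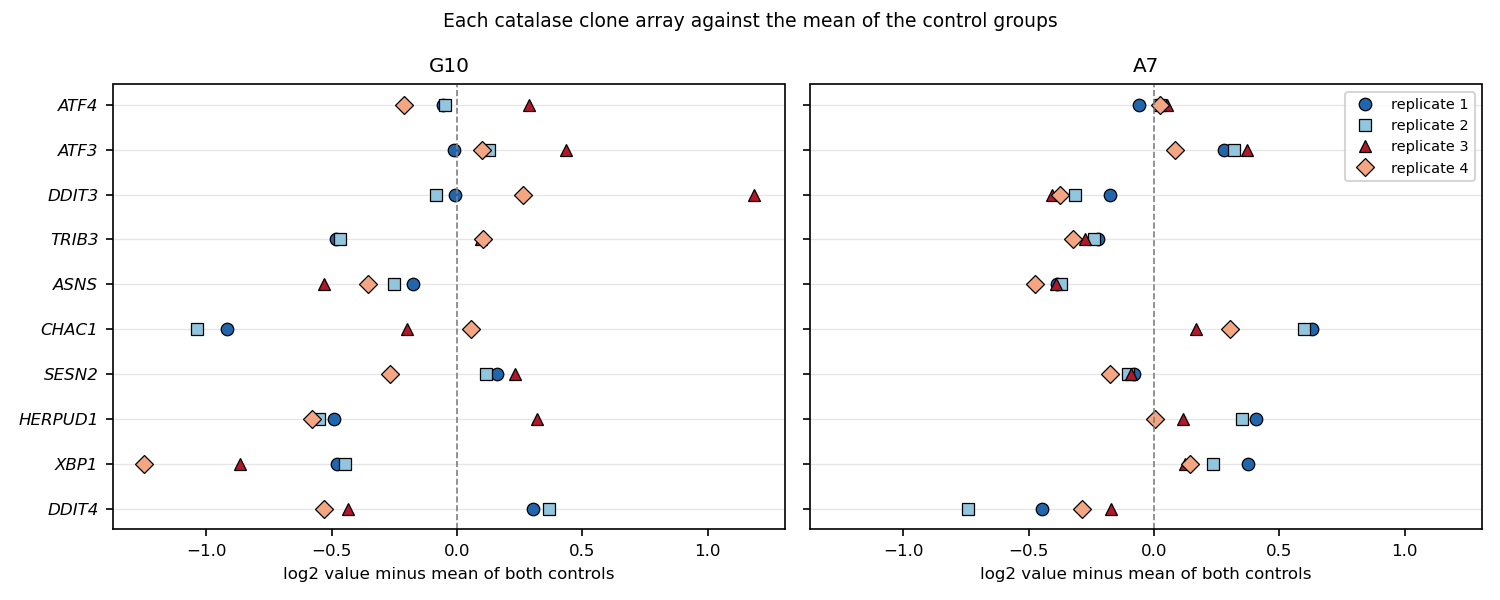
Difference of each G10 array (left) and each A7 array (right) from the mean of the control groups (x axis, log2 units) for the 10 genes, with 1 symbol per replicate. The G10 arrays spread more widely than the A7 arrays, replicate 3 is highest for DDIT3 and HERPUD1, and replicates 1 and 2 lie together and apart from 3 and 4 for TRIB3, CHAC1, XBP1 and DDIT4.

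The order of the group means, from high to low, was A7, PCDNA3, A375, G10 for XBP1, and only the step to G10 exceeded the spread of the arrays. For ASNS it was PCDNA3, A375, G10, A7, with the step between A375 and G10 as the only one where neighboring groups did not overlap. For CHAC1 it was A7, PCDNA3, A375, G10, for HERPUD1 A7, PCDNA3, A375, G10 and for DDIT3 G10, PCDNA3, A375, A7. In the last 3 orders, neighboring groups overlapped except PCDNA3 and A375 for CHAC1, which were not called. For ATF4, ATF3, TRIB3, SESN2 and DDIT4, all groups next to each other in the order of their means overlapped.

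G10 replicate 3 was set against the other G10 arrays for the further genes of the response. This array was singled out after its values of HERPUD1 and DDIT3 were seen, so the place of both in the counts was fixed. Among G10 arrays it was the highest for 5 of the 10 genes (ATF4, ATF3, DDIT3, SESN2 and HERPUD1), for 13 of 23 ER chaperones and foldases, for 14 of 31 genes of ER-associated degradation and ER traffic and for 13 of 23 bZIP partners of ATF4 and ATF3, against 24.9% of all clusters. It was the highest for 7 of 12 immediate early genes, 7 of 21 amino acid supply genes, 10 of 28 genes listed as other targets of ATF4 or DDIT3 and 7 of 18 genes of eIF2 regulation, but for 3 of 19 tRNA synthetases, 2 of 13 p53 targets and 1 of 10 genes of sensors. Some genes are on more than 1 list. It was at least 1 log2 unit above the mean of the other G10 arrays for 1.01% of all clusters. PPP1R15A, the regulatory subunit that brings phosphatase to eIF2, had 9.39 on this array, against 7.68, 7.64 and 8.35 on G10 replicates 1, 2 and 4. HSPA5, the chaperone BiP that senses unfolded proteins in the ER, had 12.53 on this array, against 11.74, 11.72 and 11.96 on the other G10 arrays. PPP1R15A was not called in G10 vs controls (0.31, adjusted p 0.454), nor was HSPA5 (-0.28, adjusted p 0.142).

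Other genes of the response were read from lists, which together named 199 genes, of which 185 were measured, and their counts stand beside the 17.8% of all clusters called in G10 and the 5.69% called in A7. Nearly all of these genes were above the olfactory receptor level, where 30% of clusters were called in G10 (13.3% lower) and 9.69% in A7. The PERK gene EIF2AK3 differed from controls by 0.01 in G10 and -0.02 in A7, the IRE1 gene ERN1 by 0.10 and -0.04 and ATF6 by 0.06 and 0.22, none called. Of 10 genes of sensors and their processing, 1 rose and 1 fell in G10 and 1 rose in A7. MBTPS1, the site-1 protease that releases ATF6 in the Golgi, fell in G10 (-0.51, adjusted p 0.000741) and was called higher in A7 (0.37, adjusted p 0.0223), but not against A375 alone (0.22, adjusted p 0.315). In G10 vs A7 it differed by -0.87 (adjusted p 2.33e-05), and without A7 replicate 1 or replicate 2 the rise in A7 was not called (adjusted p 0.0852 and 0.0921), while without PCDNA3 replicate 1 the list had 2 genes higher in A7. The proapoptotic BAK1 rose by 0.36 in G10 (adjusted p 0.00859), and with G10 replicates 3 and 4 alone it was just not called (adjusted p 0.0507).

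Of 18 genes for eIF2 kinases, eIF2B and phosphatase subunits, 4 rose and 3 fell in G10 and 0 were called in A7. The eIF2B exchange factor was split, with EIF2B3 lower (-0.59, adjusted p 0.000436) and EIF2B2 higher (0.34, adjusted p 0.00155) in G10. PPP1CA, the catalytic phosphatase subunit, fell by 0.41 in G10 (adjusted p 0.00265), with -0.59 for replicates 1 and 2 alone and -0.24 for replicates 3 and 4 alone, which was not called (adjusted p 0.0865). Without G10 replicate 2 or 4, 2 genes of the list were higher in G10. For G10 the list had a median of 0.02, against -0.04 over all clusters.

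Of 21 amino acid supply genes that ATF4 activates, 3 were higher and 6 lower in G10 (42.9% called), with a median log2 fold change of -0.21. With G10 replicates 1 and 2 alone 11 were lower (10.3% of clusters lower), and with replicates 3 and 4 alone 4 were lower (5.96% of clusters lower). ALDH1L2, a mitochondrial folate enzyme, was at 5.79, 5.95, 5.32 and 4.96 in G10, against 7.36, 7.65, 6.74 and 7.14 in PCDNA3 and 8.06, 7.91, 7.28 and 7.68 in A375, a fall of 3.93-fold (-1.97, SE 0.20, adjusted p 5.31e-06). SLC38A1, a transporter of glutamine and other neutral amino acids, was at 6.59, 6.84, 8.66 and 7.79 in G10, against 9.20 to 9.32 in PCDNA3 and 8.95 to 9.06 in A375 (-1.66, SE 0.26, adjusted p 0.000314). On both genes every G10 array was below every control array. PHGDH, the first enzyme of serine synthesis, fell by 0.81 (adjusted p 5.12e-06), and the serine and alanine transporter SLC1A4 rose by 0.90 (adjusted p 1.49e-05). For PHGDH, too, all G10 arrays were below all control arrays.

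SLC7A11, the cystine transporter that supplies glutathione synthesis, showed the pair structure plainly. It was at 8.59, 8.62, 10.18 and 10.21 in G10, against 10.43 to 10.93 in PCDNA3 and 10.12 to 10.64 in A375. G10 replicates 1 and 2 were below all other arrays, and replicates 3 and 4 overlapped the A375 range. The fall was -1.04 with all arrays (adjusted p 0.0117), -0.77 without G10 replicate 1 (adjusted p 0.0566) and -0.78 without replicate 2 (adjusted p 0.0607). It was -1.84 with replicates 1 and 2 alone and -0.25 with replicates 3 and 4 alone (adjusted p 0.306), and it was not called against A375 alone (-0.91, adjusted p 0.0641). In A7, 2 amino acid supply genes rose and 1 fell (2 without G10 replicate 4 or PCDNA3 replicate 1). SLC7A5, the leucine transporter LAT1, rose by 0.46 in A7 (adjusted p 0.00315), and PSPH, the last enzyme of serine synthesis, by 0.37 (adjusted p 0.0396). Against PCDNA3, the empty vector, alone neither was called (SLC7A5, 0.29, adjusted p 0.11, and PSPH, 0.30, adjusted p 0.183). The call of PSPH was lost without any 1 A7 array (adjusted p 0.089 to 0.112), and also without PCDNA3 replicate 1, 2 or 4 or A375 replicate 1, 2 or 4. BCAT1, called lower in both clones but not in A7 against A375 alone, was below the olfactory receptor level in all groups, so no size is given.

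Of 28 genes listed as other targets of ATF4 or DDIT3, 3 were higher and 0 lower in A7 (10.7% called), with 2 lower without G10 replicate 3 or PCDNA3 replicate 3. The list includes TRIB1, SESN3 and other relatives of the 10 genes, and whether these are targets was not tested. NUPR1, a stress-induced chromatin cofactor, had values of 7.67, 7.86, 7.71 and 7.38 in A7, against 6.67, 6.88, 6.39 and 7.05 in PCDNA3 and 6.43, 6.51, 6.29 and 6.13 in A375. Each A7 array was above each control array, and the rise was 2.16-fold (1.11, SE 0.18, adjusted p 0.0016). GDF15, a secreted stress cytokine, rose by 0.68 in A7 (adjusted p 0.00448), and TNFRSF10B, the death receptor DR5, by 0.58 (adjusted p 0.00344). The same receptor rose by 0.51 in G10 (adjusted p 0.00263), with 0.78 for replicates 1 and 2 alone and 0.25 for replicates 3 and 4 alone, which was not called (adjusted p 0.0806). In G10, 4 genes of the list rose and 3 fell, among them TXNIP, an inhibitor of thioredoxin (1.64, adjusted p 4.33e-05), KLHL24 (1.07, adjusted p 0.00286), TRIB1 (-0.92, adjusted p 0.00105) and the sestrin SESN3. SESN3 was at 10.04 and 10.14 on G10 replicates 1 and 2 and at 7.71 and 8.25 on replicates 3 and 4, and its fall (-1.23, adjusted p 0.0218) was not called without replicate 3 (-0.79, adjusted p 0.083) or without replicate 4 (-0.97, adjusted p 0.0891), nor against PCDNA3 alone (-0.74, adjusted p 0.272). KLHL24 was 1.62 with G10 replicates 1 and 2 alone and 0.53 and not called with replicates 3 and 4 alone (adjusted p 0.106), and against A375 alone it was 0.50 and not called (adjusted p 0.25).

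Cytosolic aminoacyl-tRNA synthetases, which load tRNAs and many of which ATF4 activates, were called for 9 of 19 genes in G10, 6 lower and 3 higher. FARSB (-0.72, adjusted p 0.000253), AARS1 (-0.59, adjusted p 0.000739) and GARS1 (-0.57, adjusted p 6.47e-05) fell in G10, each with all G10 arrays below all control arrays. WARS1 rose in G10 (0.46, adjusted p 0.0134), which did not pass without G10 replicate 1 (adjusted p 0.0542) or replicate 2 (adjusted p 0.0661) or against PCDNA3 alone (adjusted p 0.0689), and 0 synthetases were higher without G10 replicate 1 and 1 without replicate 2. With G10 replicates 3 and 4 alone 0 were higher. In A7 only CARS1 of the 19 was called, higher by 0.52 (adjusted p 0.000232), with values of 10.18, 10.15, 10.02 and 10.06 in A7, against 9.40 to 9.67 in PCDNA3 and 9.52 to 9.76 in A375.

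ER chaperones and foldases were the list with calls in 1 direction only in G10, where 8 of 23 (34.8%) were lower and 0 higher and the median log2 fold change was -0.18. FKBP14, a proline isomerase for collagen, was at 9.75, 9.91, 9.45 and 9.54 in G10, against 10.32 to 10.47 in PCDNA3 and 10.31 to 10.43 in A375 (-0.72, adjusted p 1.92e-05). SDF2L1 (-0.58, adjusted p 0.00551), PDIA4 (-0.46, adjusted p 0.00224) and HYOU1 (-0.44, adjusted p 0.00257) fell too, and on these 3 genes G10 overlapped the controls. PDIA4 was not called against PCDNA3 alone (-0.24, adjusted p 0.167), and with G10 replicates 3 and 4 alone neither SDF2L1 (-0.35, adjusted p 0.163) nor HYOU1 (-0.33, adjusted p 0.068) was. Without G10 replicate 3, 11 chaperones were lower and 2 higher, and without G10 replicate 4 or PCDNA3 replicate 4, 2 and 1 were higher. With replicates 1 and 2 alone 8 were lower and 2 higher, and with replicates 3 and 4 alone 4 were lower and 0 higher. Among the chaperones not called in G10 were HSP90B1 (the ER member of the HSP90 family) with 0.14 (adjusted p 0.161), PDIA6 with 0.03 (adjusted p 0.78) and CALR with -0.07 (adjusted p 0.5). In A7 1 gene was called with all arrays (1 more, lower, without G10 replicate 2, G10 replicate 4 or PCDNA3 replicate 1), DNAJC10, which was higher in A7 (0.30, adjusted p 0.0118) and lower in G10 (-0.23, adjusted p 0.0241). Its call was lost in A7 without A7 replicate 1 (adjusted p 0.0516). In G10 it was lost without G10 replicate 1 (adjusted p 0.073) or replicate 2 (adjusted p 0.0847). It was also lost in G10 against PCDNA3 alone (adjusted p 0.0628) or A375 alone (adjusted p 0.0522). In G10 vs controls, replicates 3 and 4 alone gave -0.175 for DNAJC10, not called (adjusted p 0.217). Replicates 1 and 2 alone gave -0.284 (adjusted p 0.0219).

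**Figure D4:**
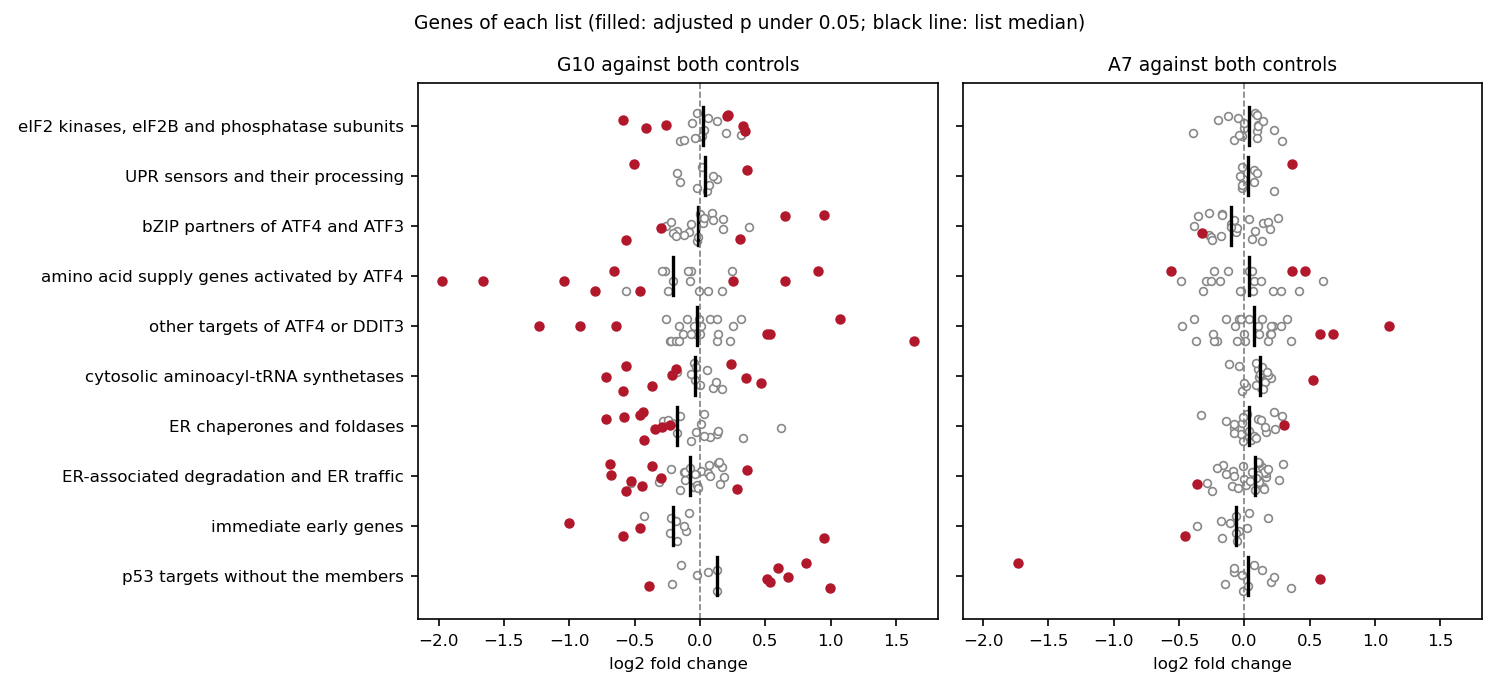
Log2 fold change vs controls (x axis) of each measured gene of 10 lists (rows) in G10 (left) and A7 (right), with called genes filled and the list median as a black line. Calls are more frequent in G10 than in A7, and in G10 the 8 called chaperones all lie below 0.

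Genes of ER-associated degradation and ER traffic were mostly lower where called in G10, 7 of 31 lower and 2 higher (1 higher without G10 replicate 1 or 2), with a median of -0.08. The share called was 29.0%, near the 30% of all clusters above the olfactory receptor level (13.3% lower). EDEM1, which hands misfolded glycoproteins to degradation and is a target of spliced XBP1, was at 7.93, 7.96, 8.38 and 8.02 in G10, against 9.10, 9.04, 9.03 and 9.07 in A7, 8.70 to 8.82 in PCDNA3 and 8.58 to 8.90 in A375. Every G10 array was below every other array, with -0.69 in G10 vs controls (adjusted p 3.22e-05) and -0.99 in G10 vs A7 (adjusted p 4.16e-06). SPCS2 of the signal peptidase (-0.68, adjusted p 0.000174), the ER stress transducer CREB3L2 (-0.56, adjusted p 0.00122) and UFD1 (-0.53, adjusted p 0.00858) fell in G10. UFD1 was -0.89 with replicates 1 and 2 alone and -0.16 and not called with replicates 3 and 4 alone (adjusted p 0.207), and it was not called against A375 alone (adjusted p 0.0763). In A7, DERL1, a retrotranslocation channel component, was the called gene (-0.36, adjusted p 0.018), and it was not called without A7 replicate 3 (adjusted p 0.0781) or replicate 4 (adjusted p 0.0596), or against A375 alone (adjusted p 0.129). Without G10 replicate 3 or A375 replicate 1, 1 gene of the list, EDEM1, was higher in A7 (adjusted p 0.0131 and 0.0447).

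The bZIP factors that pair with ATF4 or ATF3 gave 3 higher and 2 lower of 23 in G10 (1 lower without G10 replicate 1 or 2) and 1 lower in A7 (2 without G10 replicate 3 or PCDNA3 replicate 3). JUN was at 7.12, 7.17, 8.15 and 7.68 in G10, above all control arrays (6.42 to 6.98 in PCDNA3 and 6.34 to 6.53 in A375), a rise of 0.95 (adjusted p 0.000747). CEBPD rose by 0.65 in G10 (adjusted p 0.00796), with 1.07 for replicates 1 and 2 and 0.23, not called, for replicates 3 and 4 (adjusted p 0.222), and was not called against A375 alone (adjusted p 0.0553). FOSL2 fell by 0.32 in A7 (adjusted p 0.0237) and did not pass without A7 replicate 1, 3 or 4 (adjusted p 0.0761, 0.0858 and 0.0555) or against PCDNA3 alone (adjusted p 0.0632) or A375 alone (adjusted p 0.0546). Among 12 immediate early genes, 1 (JUN again) rose and 3 fell (5 without G10 replicate 3) in G10, where EGR1 fell by 1.00 (adjusted p 6.39e-05), and EGR3 fell in both clones (G10, -0.59, adjusted p 0.000125, and A7, -0.45, adjusted p 0.00375).

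Targets of p53, of which several respond to the same stresses, were called for 7 of 13 genes in G10, 6 higher and 1 lower (2 lower without G10 replicate 3). CDKN1A, the cell cycle inhibitor p21, was at 9.47, 9.46, 8.88 and 8.32 in G10, against 8.02 to 8.15 in PCDNA3 and 7.89 to 8.06 in A375 (0.99, adjusted p 0.000329). RRM2B (0.60, adjusted p 0.000848) and ZMAT3 (0.67, adjusted p 0.00434) rose in G10, ZMAT3 with 1.01 for replicates 1 and 2 alone and 0.33 for replicates 3 and 4 alone, which was not called (adjusted p 0.155). With G10 replicates 3 and 4 alone 3 genes of this list were higher. In A7, TNFRSF10B was higher, with CDKN1A beside it without G10 replicate 4 (0.36, adjusted p 0.039), and TP53INP1 lower. TP53INP1 averaged 3.69 in A7, below the olfactory receptor level, against 5.42 in controls, so its fall is given as at least 0.25 log2 units (-1.73 as measured, adjusted p 0.000114). In G10 it was 0.81 above controls (adjusted p 0.0135). This was not called without G10 replicate 1 (adjusted p 0.057) or replicate 2 (adjusted p 0.0698), nor against A375 alone (0.53, adjusted p 0.188). With G10 replicates 1 and 2 alone TP53INP1 was 1.26 above controls (adjusted p 0.000874). With replicates 3 and 4 alone it was 0.36 above and not called (adjusted p 0.341).

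Over the 16 arrays, the genes whose values followed each of the 10 most closely were ranked by Pearson's r among 13766 genes above the olfactory receptor level, as a description in which the arrays of a clone share their clone. SCUBE3 (r = 0.97), PLPP3 (r = 0.95) and HRH2 (r = 0.94) were nearest to XBP1. DHRS2 (r = 0.95) was nearest to ASNS and LPAR3 (r = 0.95) to CHAC1. HERPUD1 was followed most closely by DNAJC3 (r = 0.90), which encodes the ER cochaperone P58IPK and is itself a gene of the unfolded protein response. DDIT4 was followed by P4HA2 and P4HB (both r = 0.88), which encode subunits of collagen prolyl 4-hydroxylase. TRIB3 was followed by the histone gene H4C3 (r = 0.91), DDIT3 by TPD52L2 (r = 0.88), SESN2 by CUX1 (r = 0.86), ATF3 by YBX3 (r = 0.82) and ATF4, whose level hardly varied, by KCNIP3 (r = 0.70). None of these nearest genes was one of the 10.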

How the data were processed

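The authors processed 16 arrays with RMA (background correction, normalization between arrays and a summary of each cluster's probes), which pulls the arrays' distributions together and compresses differences of dim genes. The deposited table holds 33297 clusters on the log2 scale. No version of RMA or of the authors' limma is named in the labels or methods read here. GEO's annotation of the platform gave gene symbols, and genes were named from the 19460 clusters with 1 symbol. Of the listed genes, 14 had no such cluster and were not analysed here.

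In R 4.3.3 with limma 3.58.1, 1 mean per group was fitted over all 16 arrays (lmFit, contrasts.fit, eBayes, 3.57 prior degrees of freedom), and p-values were adjusted with the Benjamini-Hochberg method across the whole table. The fit was tested on simulated data. Each p sets a difference of group means against the spread of arrays within groups, pooled over all 4 groups and moderated by eBayes. It therefore also depends on the arrays of groups that are not compared. Whether the arrays of a group came from separate cultures is not given in the labels, and the number of arrays limits the precision. Motifs were searched and plots made in Python 3.11.15 with pandas 2.3.3 and matplotlib 3.10.9.

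The 10 genes, the gene lists and the tests were chosen with earlier results of these data known. The text names all 10 genes, up to 4 called genes of each list with the largest change in either clone, and the genes most correlated with each of the 10. EIF2AK3, ERN1, ATF6, PPP1R15A, HSPA5, PHGDH, HSP90B1, PDIA6 and CALR were added after their values were seen. Replicate numbers did not pair arrays of different groups: deviations from the group means of same-numbered arrays had a median r of 0.01 over 24 pairs, and 3 pairs exceeded 0.1. Alternatives were other controls, scalings, filters, variance models, weights per array, the replicate number as a block, and fits without single arrays or pairs of them.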

Additional observations from a re-analysis of the deposited data

Results flagged for a closer look

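On 2 of 40 sets of 4 arrays (10 genes in 4 groups), 1 array lay far from the other 3, about as many as chance gives (1 in 20). HERPUD1 was 10.70 on G10 replicate 3, against 9.81 to 9.89 on the other G10 arrays. SESN2 was 7.06 on A375 replicate 1, against 6.94 to 6.96 on the other A375 arrays.

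In 3 genes the catalase clones differed from each other by limma's test of the difference itself, G10 minus A7. XBP1 differed by -0.98 (adjusted p 0.000284), CHAC1 by -0.95 (adjusted p 0.0135) and HERPUD1 by -0.55 (adjusted p 0.0488). These differences equal those of the clones' changes from controls, since the controls cancel.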

How the results depend on the processing

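The fall of XBP1 in G10 (vs controls and vs A7) kept its direction and call under every alternative run except a stricter limit (1 log2 unit or more and adjusted p below 0.001), which called 0 of the 10 genes in each comparison. In G10 vs controls, A375 alone as control called 1 (XBP1, with 14.2% of clusters called). Array weights called 5, with ASNS, TRIB3, CHAC1 and HERPUD1 beside XBP1 and 22.5% of clusters called. G10 replicates 1 and 2 alone called 4 (XBP1, TRIB3, CHAC1 and HERPUD1), with 21.1% of clusters called (10.3% lower). In A7 vs controls the call of ASNS was lost with A375 alone as control (0 called, against 4.17% of clusters). It was also lost with A7 replicates 1 and 2 or 3 and 4 alone (0 called each, against 4.12% and 2.17% of clusters), where only 2 arrays remain. ASNS stayed called without any 1 array (adjusted p up to 0.0305 in A7 and 0.044 in G10). In G10 vs A7, fitting only clusters above the olfactory receptor level also called DDIT3, higher (adjusted p 0.0456, with 25.9% of clusters called). In the same comparison, A7 replicates 3 and 4 alone left 1 (XBP1, with 11.3% of clusters called). There, G10 replicates 3 and 4 alone called XBP1 lower and DDIT3 (1.04, adjusted p 0.00953) and TRIB3 (0.365, adjusted p 0.044) higher, with 15.3% of clusters called. CHAC1 and HERPUD1 were then not called (adjusted p 0.206 and 0.342). G10 replicates 1 and 2 alone kept XBP1, CHAC1 and HERPUD1 lower and called DDIT4 higher (adjusted p 0.0386), with 19% of clusters called. The splits of a clone's arrays were added after seeing the data. In PCDNA3 vs A375, 0 were called under all 26 alternatives. Of 1160 fold changes of the 10 genes under alternatives, 32 lost their call, 16 gained one and 0 reversed a call. Of these, HERPUD1 in G10 vs A7 lost its call in 20 of 30. Of 2320 counts of list genes under alternatives, 259 moved by more than 1.5 times, or from or to 0. The causes were not tested. With the replicate number as a block (replicate block), 1, 2, 3 and 0 genes were called in A7, G10, G10 vs A7 and PCDNA3 vs A375. The shares of clusters called were then 5.26%, 17.2%, 14.5% and 0.15%. Of the 16 arrays, 5 correlated best with an array of their own number.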
